A study of Arabidopsis thaliana with 15 samples.

Results

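The genes described here are the cellulose synthase genes of the primary wall, CESA1 (AT4G32410), CESA2 (AT4G39350), CESA3 (AT5G05170), CESA5 (AT5G09870) and CESA6 (AT5G64740), those of the secondary wall, CESA4 (AT5G44030), CESA7 (AT5G17420) and CESA8 (AT4G18780), and the cellulose synthase-like gene CSLB4 (AT2G32540). They were chosen by gene identifier, and all 9 were found among the 32833 genes of the count table and passed the filter that left 19663 genes for testing. Rosettes of Arabidopsis thaliana plants 28 days old were profiled by mRNA sequencing, in 5 lines with 3 libraries each. The study asked which genes depend on NAC052, a NAC family transcription factor found in a screen for altered reporter expression in leaf veins.

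All 5 lines are in the Columbia-0 background and carry the pGLDPA::RbcS.TP-sGFP reporter, which is active in the bundle. In the activation-tagged line the tag lies within the NAC052 coding sequence. The CRISPR/Cas line carries a nucleotide insertion in the endogenous NAC052. GLDT::5'truncatedNAC052 plants express a truncated NAC052 coding sequence, and GLDT::NAC052 plants the full one, from the bundle-specific GLDT promoter of Flaveria trinervia, and both keep the endogenous gene. The reference line holds the reporter alone. Each genotype is represented by 1 line, so a difference between genotypes cannot be told apart from a difference between lines.

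Cellulose is made at the plasma membrane by rosette-shaped complexes of CESA proteins, which join glucose from UDP-glucose into chains. Complexes of growing cells hold CESA1, CESA3 and a subunit of the CESA6 type, a place that CESA2 and CESA5 can also take. Complexes of cells that thicken their walls after growth, such as xylem vessels and fibres, hold CESA4, CESA7 and CESA8, and loss of any of these gives collapsed xylem. CSLB4 belongs to a family related to the CESA genes whose product is not established.

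The sequences before the 3 secondary wall genes are shown because these genes moved together in the results. Each is the 300 bases before the annotated gene start, read on the gene's strand from the RefSeq annotation of TAIR10.1. CESA4 has chr5:17714090-17714389 on the plus strand, CESA7 has chr5:5741501-5741800 on the minus strand and CESA8 has chr4:10316887-10317186 on the minus strand. Capitals mark matches on either strand to the secondary wall MYB element (SMRE), which reads ACC, then A or T, then A, then A or C, then C or T and to the tracheary element motif TERE (CTTNAAAGCNA).
CESA4: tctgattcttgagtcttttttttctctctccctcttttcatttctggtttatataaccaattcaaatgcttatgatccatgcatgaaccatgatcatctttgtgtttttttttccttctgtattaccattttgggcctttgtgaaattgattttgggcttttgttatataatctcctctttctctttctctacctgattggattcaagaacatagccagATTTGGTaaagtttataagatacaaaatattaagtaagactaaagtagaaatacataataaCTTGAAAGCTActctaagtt
CESA7: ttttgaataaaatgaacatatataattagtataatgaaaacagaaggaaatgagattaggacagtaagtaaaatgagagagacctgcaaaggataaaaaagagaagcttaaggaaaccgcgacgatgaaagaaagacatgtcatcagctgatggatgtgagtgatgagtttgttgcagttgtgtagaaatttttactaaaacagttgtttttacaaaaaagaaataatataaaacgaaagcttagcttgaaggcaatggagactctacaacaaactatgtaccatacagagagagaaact
CESA8: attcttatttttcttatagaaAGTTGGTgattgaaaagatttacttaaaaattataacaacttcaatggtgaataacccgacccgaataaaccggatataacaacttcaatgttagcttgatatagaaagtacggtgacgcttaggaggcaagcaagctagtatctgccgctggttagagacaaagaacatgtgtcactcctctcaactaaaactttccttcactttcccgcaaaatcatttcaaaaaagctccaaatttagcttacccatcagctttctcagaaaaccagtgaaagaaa

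The CESA4 window held 1 SMRE match, 81 to 75 bases before the start, and 1 TERE match, 20 to 10 bases before it. The CESA8 window held 1 SMRE match, 279 to 273 bases before the start, and the CESA7 window held neither motif. Of 27443 windows of the same length before protein-coding genes, 33.9% held an SMRE match and 0.43% a TERE match. Among the primary wall genes, CESA1 had 1 SMRE match and CESA5 had 2. The palindrome CTTGNNNNNCAAG, a binding motif of NAC050 and NAC052, was present in 0.86% of all windows and in none of the 9 windows here.

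NAC052 transcript was measured first, as a check of the labels. Its level was 64.0, 61.7 and 80.0 CPM (read counts scaled to library size) in the activation-tagged libraries, 22.2, 20.1 and 22.6 CPM in the CRISPR/Cas libraries, 25.0, 66.0 and 52.5 CPM in the GLDT::5'truncatedNAC052 libraries and 279.9, 27.2 and 165 CPM in the GLDT::NAC052 libraries, against 19.7, 20.6 and 19.5 CPM in the reference libraries. The log2 fold change over reference was 2.98 ± 0.57 in GLDT::NAC052 (edgeR adjusted p = 0.00158), and at 1.78 ± 0.55 it did not pass the test in the activation-tagged line (edgeR adjusted p = 0.0945). All activation-tagged libraries lay above all reference libraries, and NAC052 was called there when only these 6 libraries were fitted (1.78, edgeR adjusted p = 0.000629). Replicate 2 of GLDT::NAC052 and replicate 1 of GLDT::5'truncatedNAC052 lay close to the reference level. A nucleotide insertion need not change the transcript level, so the CRISPR/Cas line is not checked by it. Library totals ran from 28074380 to 38579309 counts. The reference and activation-tagged libraries were sequenced on lane 1 and the 9 others on lane 8, so lane and line cannot be told apart where a lane 8 line is compared with reference. The 3 lines of lane 8 were therefore also compared with each other.

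The 3 secondary wall genes were lower in the CRISPR/Cas line than in every other line. CESA4, a catalytic subunit of the secondary wall complex, had 7.50, 7.52 and 7.14 CPM in the CRISPR/Cas libraries, against 15.9, 17.0 and 17.8 CPM in the reference libraries. The groups did not overlap, and the log2 fold change was -1.19 ± 0.10 (SE, n = 3 each; edgeR quasi-likelihood test, Benjamini-Hochberg adjusted p = 1.92e-05). CESA7, the gene of the irx3 mutant, had 2.86, 3.43 and 4.65 CPM in the CRISPR/Cas libraries, against 8.90, 9.93 and 11.3 CPM in the reference libraries. Its log2 fold change was -1.46 ± 0.17 (edgeR adjusted p = 0.000172), again without overlap. CESA8, the gene of the irx1 mutant, had 2.44, 3.27 and 3.29 CPM in the CRISPR/Cas libraries, against 9.93, 8.31 and 10.8 CPM in the reference libraries. Its log2 fold change of -1.69 ± 0.18 was the largest of the 9 genes in this comparison (edgeR adjusted p = 9.14e-05). None of the calls on these 3 genes changed under any alternative run.

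**Figure D1:**
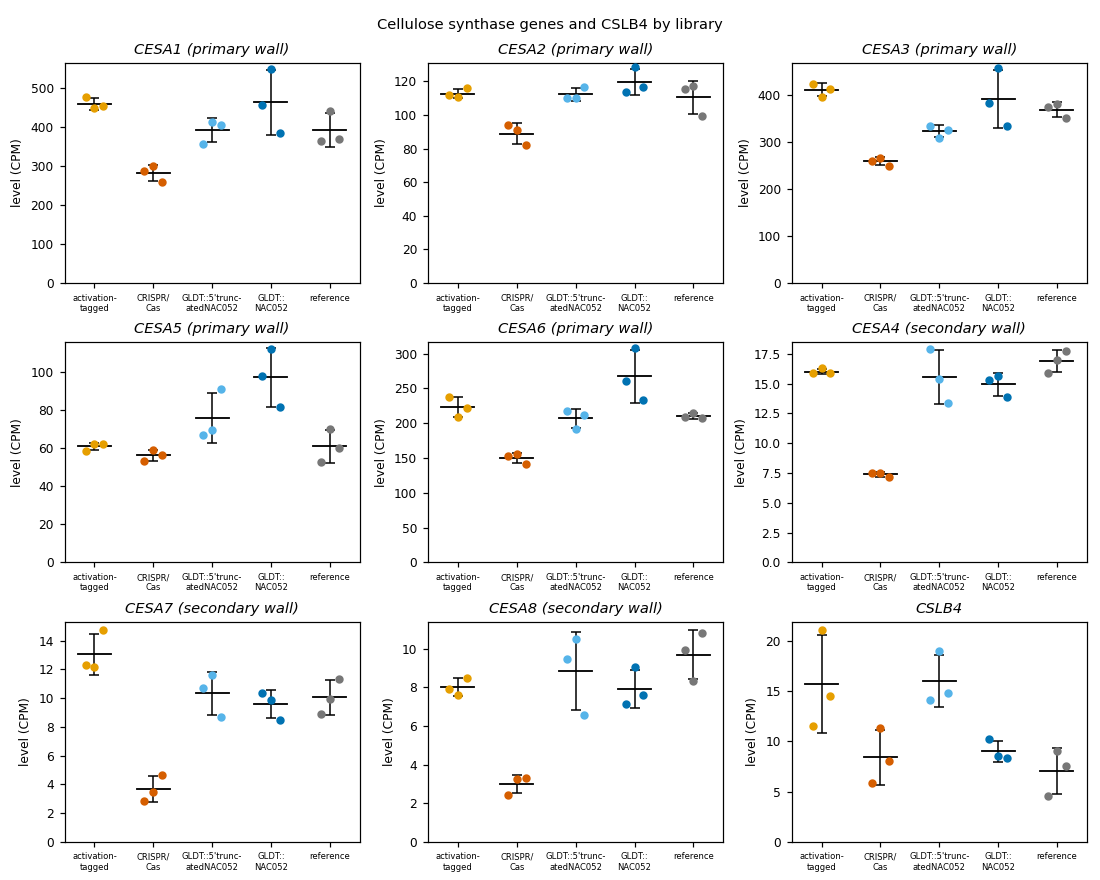
Level in CPM of each gene by library, with 1 point per library and the mean and SD (n = 3) of each line in black. CESA4, CESA7 and CESA8 lay lower in all 3 CRISPR/Cas libraries than in any library of the other lines.

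The same fall was present within lane 8. Against GLDT::5'truncatedNAC052, the log2 fold change in the CRISPR/Cas line was -1.08 ± 0.10 for CESA4, -1.50 ± 0.17 for CESA7 and -1.55 ± 0.18 for CESA8 (edgeR adjusted p = 2.05e-05, 6.21e-05 and 6.42e-05). Against GLDT::NAC052 it was -1.02 ± 0.10, -1.39 ± 0.17 and -1.40 ± 0.18 in the same gene order (edgeR adjusted p = 7.12e-06, 3.42e-05 and 4.53e-05). A whole rosette holds many cell types, so fewer cells with secondary walls and less RNA per such cell cannot be told apart.

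The primary wall genes fell by less. CESA3, a core subunit of the primary wall complex, had 261, 267 and 250.5 CPM in the CRISPR/Cas libraries, against 375, 381 and 352 CPM in the reference libraries, and its log2 fold change was -0.51 ± 0.10 (edgeR adjusted p = 0.00309). CESA6 had 152, 156 and 142 CPM in the CRISPR/Cas libraries, against 209.6, 214 and 207 CPM in the reference libraries, a log2 fold change of -0.49 ± 0.10 (edgeR adjusted p = 0.00383). CESA1, the other core subunit, had 287, 299 and 260 CPM in the CRISPR/Cas libraries, against 364, 441 and 369 CPM in the reference libraries, a log2 fold change of -0.47 ± 0.12 (edgeR adjusted p = 0.0143). For each of these genes the lines did not overlap.

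CESA2, a subunit of the CESA6 type, showed a log2 fold change of -0.31 ± 0.08 in the CRISPR/Cas line against reference (edgeR adjusted p = 0.0156). CESA5, another of that type, did not pass the test at -0.12 ± 0.14 (edgeR adjusted p = 0.553), nor did CSLB4 at 0.26 ± 0.28 (edgeR adjusted p = 0.531). In all, 7 of the 9 genes were lower and none was higher, where 12.8% of all tested genes were lower and 23.8% changed in either direction. The calls on CESA1 and CESA2 were lost with library totals as the only scaling (log2 fold change -0.29, adjusted p = 0.0789, and -0.13, adjusted p = 0.302), without CRISPR/Cas replicate 3 (adjusted p = 0.0675 and 0.0813) and without reference replicate 2 (adjusted p = 0.0678 and 0.0666). The call on CESA2 was also lost without reference replicate 1 (adjusted p = 0.0543). Library totals moved the median log2 fold change of all tested genes to 0.19 in this comparison, and the share of higher genes among those called to 76.7%, against 46.1% as fitted.

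Within lane 8 the primary wall genes were also lower in the CRISPR/Cas line. Against GLDT::5'truncatedNAC052 all 5 were called, with log2 fold changes between -0.47 and -0.32, and with CSLB4 at -0.93 ± 0.28 (edgeR adjusted p = 0.0223) all 9 genes were lower, where 15.4% of tested genes were. Leaving out 1 library at a time left between 4 and 8 of these 9 calls, the lowest count without CRISPR/Cas replicate 3. Library totals as the only scaling lost CESA2, CESA3 and CESA5 (adjusted p = 0.0786, 0.115 and 0.0944), and CESA3 was also lost when only the 6 libraries compared were fitted (adjusted p = 0.0514). Against GLDT::NAC052 the 5 primary wall genes lay between -0.83 and -0.43, and 8 of the 9 genes were lower, where 20.9% of tested genes were. CSLB4 was not called there (-0.10 ± 0.28, edgeR adjusted p = 0.793). Against the activation-tagged line, sequenced on the other lane, 8 of the 9 genes were lower, where 17.5% of tested genes were. Library totals alone lost CESA2 (log2 fold change -0.05, adjusted p = 0.662) and CSLB4 (adjusted p = 0.0763). CSLB4 was also lost without activation-tagged replicate 2 (adjusted p = 0.112) and without CRISPR/Cas replicate 1 or 3 (adjusted p = 0.0896 and 0.0625).

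**Figure D2:**
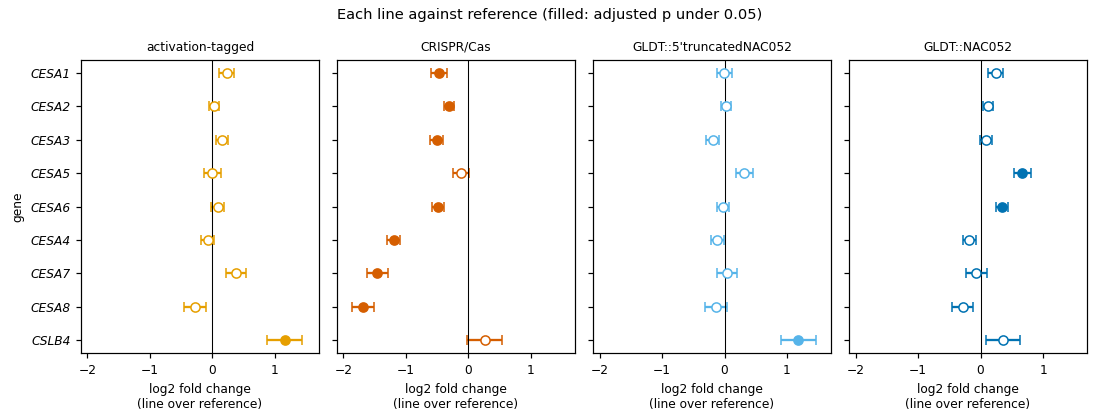
Log2 fold change of each gene in each of 4 lines over reference, with its SE. Filled points have an edgeR adjusted p under 0.05. In the CRISPR/Cas panel CESA4, CESA7 and CESA8 lie between -1.69 and -1.19.

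Set against each other, the secondary wall genes took a smaller place beside the primary wall genes in the CRISPR/Cas line. The 3 secondary wall genes summed to 12.8, 14.2 and 15.1 CPM in the CRISPR/Cas libraries, against 34.75, 35.2 and 39.9 CPM in the reference libraries. The 5 primary wall genes summed to 847, 871 and 791 CPM in the CRISPR/Cas libraries, against 1117, 1223 and 1088 CPM in the reference libraries. The secondary sum was 1.68% ± 0.20 of the primary sum in the CRISPR/Cas line and 3.22% ± 0.41 in the reference line (SD, n = 3 each), with ranges that did not overlap.

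The other lines lay nearer to reference. The secondary sum was 2.93% ± 0.17 of the primary sum for activation-tagged, 3.14% ± 0.56 for GLDT::5'truncatedNAC052 and 2.44% ± 0.20 for GLDT::NAC052 plants (SD, n = 3 each). The 3 GLDT::NAC052 libraries, from 2.23% to 2.61%, lay below the reference libraries, from 2.88% to 3.67%. No test was run on these shares.

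**Figure D3:**
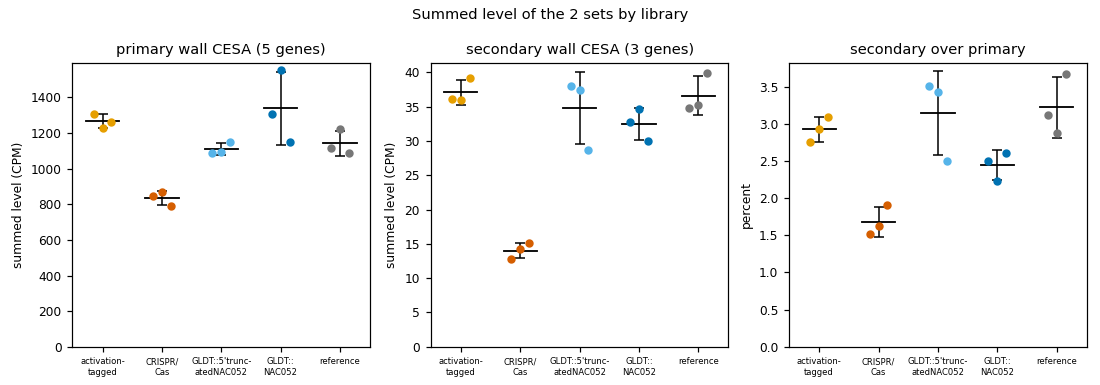
Summed CPM of the primary and of the secondary wall genes and the second as a percent of the first, with 1 point per library and the mean and SD (n = 3) in black. The CRISPR/Cas libraries lie lowest in all 3 panels, with 1.51% to 1.91% in the last.

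In the GLDT::NAC052 line CESA5 and CESA6 were higher than in reference. CESA5 had 97.5, 112 and 81.2 CPM in the GLDT::NAC052 libraries, against 52.8, 69.8 and 60.0 CPM in the reference libraries, without overlap. Its log2 fold change was 0.67 ± 0.14 (edgeR adjusted p = 0.00213). Against GLDT::5'truncatedNAC052, of the same lane, CESA5 was not called (0.355, edgeR adjusted p = 0.118), and the libraries overlapped. GLDT::5'truncatedNAC052 itself was at 0.316 over reference, uncalled (adjusted p = 0.191). CRISPR/Cas, also of that lane, lay below GLDT::NAC052 (-0.79, adjusted p = 0.000423). Lane and line cannot be told apart in the rise of CESA5 over reference. CESA6 had 261, 308 and 233 CPM in the GLDT::NAC052 libraries, against 209.6, 214 and 207 CPM in the reference libraries, a log2 fold change of 0.34 ± 0.10 (edgeR adjusted p = 0.0157). These were the 2 genes of the 9 called higher and none was lower, where 17.0% of tested genes were higher and 34.3% changed in either direction, so the count lay near that of all genes. The 4 leaf markers summed to 16890 to 23140 CPM in the GLDT::NAC052 libraries, against 27840 to 30770 CPM in the reference libraries, with GLDP1, LHCB1.1 and RBCS1A lower. Of the 3 phloem markers APL was lower and SUC2 and SEOR1 were not called. Of the 2 floral markers tested AG was lower and SEP3 was not called. All 6 floral markers summed to only 0.609 to 0.720 CPM in the GLDT::NAC052 libraries, against 1.40 to 1.61 CPM in the reference libraries. The xylem vessel markers summed to 66.6 to 71.5 CPM in the GLDT::NAC052 libraries, against 79.2 to 90.25 CPM in the reference libraries, with none called. Against GLDT::5'truncatedNAC052, of the same lane, no leaf, phloem or vessel marker was called, and AG was again lower. The leaf markers summed to 20140 to 28560 CPM in the GLDT::5'truncatedNAC052 libraries, which overlapped with GLDT::NAC052. The part of these markers in the results was not tested.

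Replicate 2 of GLDT::NAC052, the library with the lowest NAC052 of that line, had the highest level of that line for all 5 primary wall genes. Without it CESA5 remained called against reference (log2 fold change 0.555, edgeR adjusted p = 0.0093) and CESA6 did not (0.23, adjusted p = 0.0715). CESA6 was also lost when only the 6 libraries compared were fitted (adjusted p = 0.0646). CESA4, CESA7 and CESA8 were at -0.18 ± 0.10, -0.07 ± 0.17 and -0.29 ± 0.17 in this line against reference, none past the test. Against GLDT::5'truncatedNAC052, CESA6 was the 1 gene called, at 0.37 ± 0.10 (edgeR adjusted p = 0.0364), where 8.54% of tested genes were, and without replicate 2 of GLDT::NAC052 it was not (0.25, adjusted p = 0.105). Nor was it without replicate 1 of that line (adjusted p = 0.0591), or without replicate 1 or 2 of GLDT::5'truncatedNAC052 (adjusted p = 0.0778 and 0.154).

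CSLB4 followed another pattern. It had 11.6, 21.1 and 14.5 CPM in the activation-tagged libraries and 14.2, 19.0 and 14.8 CPM in the GLDT::5'truncatedNAC052 libraries, against 4.55, 9.03 and 7.59 CPM in the reference libraries. Neither line overlapped with reference. The log2 fold change was 1.16 ± 0.28 in activation-tagged plants (edgeR adjusted p = 0.0374) and 1.18 ± 0.28 in GLDT::5'truncatedNAC052 plants (edgeR adjusted p = 0.0281).

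CSLB4 was the 1 gene of the 9 called in each of these lines, where 3.65% (activation-tagged) and 5.83% (GLDT::5'truncatedNAC052) of tested genes were called. The activation-tagged call was lost without replicate 2 or 3 of that line (adjusted p = 0.161 and 0.0833), without reference replicate 1 or 3 (adjusted p = 0.12 and 0.0934), and with library totals alone (adjusted p = 0.051). The GLDT::5'truncatedNAC052 call was lost without replicate 2 of that line (adjusted p = 0.0725) and without reference replicate 1 or 3 (adjusted p = 0.0987 and 0.0786). Both were lost when only the 6 libraries compared were fitted (adjusted p = 0.0548 and 0.0661). CSLB4 lies beside CSLB3, and their coding sequences were 88.8% identical with a longest shared run of 88 bases. This run is shorter than the reads were before trimming, and whether reads were exchanged between the genes was not tested. CSLB3 itself was higher in the CRISPR/Cas line, with 3.96, 10.4 and 6.33 CPM, against 0.832, 3.24 and 2.98 CPM in the reference libraries (log2 fold change 1.56 ± 0.43, edgeR adjusted p = 0.0184). In the GLDT::5'truncatedNAC052 libraries CSLB3 had 5.48, 8.04 and 6.47 CPM, without overlap with reference, and did not pass the test (1.51 ± 0.43, edgeR adjusted p = 0.055). In the activation-tagged libraries it had 1.68, 2.95 and 3.55 CPM (0.22 ± 0.44, edgeR adjusted p = 0.833). The GLDT::NAC052 libraries, with a mean of 4.15 CPM, also lay above reference without overlap (0.83 ± 0.43, edgeR adjusted p = 0.155). No comparison within lane 8 called CSLB3, with CRISPR/Cas at 0.05 ± 0.40 against GLDT::5'truncatedNAC052 and 0.73 ± 0.41 against GLDT::NAC052 (edgeR adjusted p = 0.938 and 0.169). Lane and line therefore cannot be told apart in its rise over reference.

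Per kilobase of exon, the primary wall genes were the more abundant in every library. CESA1 and CESA3 stood highest, with means over the 15 libraries of 94.0 and 91.8 CPM per kilobase and ranges that overlapped (61.5 to 129.9, and 65.5 to 119.9). CESA6 followed at 50.7, CESA2 at 25.6 and CESA5 at 16.9 CPM per kilobase. CSLB4 at 4.44, CESA4 at 3.755, CESA7 at 2.74 and CESA8 at 2.24 CPM per kilobase overlapped in range. Across the 5 lines all 9 genes passed the edgeR test for any difference, where 58.1% of tested genes did.

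Over the 15 libraries, log2 CPM of CESA4, CESA7 and CESA8 ran together, with Pearson's r between 0.92 and 0.96. Over the 12 libraries without the CRISPR/Cas line r was between 0.21 and 0.635 for the same pairs, so the likeness rested mainly on that line. The genes most like the mean of these 3 were XCP2 (r = 0.986), LAC17 (r = 0.981), GulLO6 (r = 0.973), RCP1 (r = 0.972) and XCP1 (r = 0.971), of 17339 genes compared. XCP1 and XCP2 are proteases of xylem vessels and LAC17 is a laccase of lignin formation. The genes most like the mean of the 5 primary wall genes were AT1G76670, MPK20, PIP2E, AT1G29670 and COB, with r from 0.945 to 0.971, and COB is a membrane-anchored protein needed for oriented cellulose deposition. Those most like CSLB4 were AT2G25280, AT5G01940, AT1G75730, ABCG22 and GALK, with r from 0.837 to 0.876. These values are descriptions over libraries that share lines and lanes.

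RCP1 (AT5G17520), also known as MEX1 and encoding the maltose exporter of the chloroplast, was nearly undetected in the CRISPR/Cas line. It had 0.365, 0.423 and 0.151 CPM in the CRISPR/Cas libraries, against 36.8, 47.5 and 40.9 CPM in the reference libraries. Its log2 fold change was -7.04 ± 0.31 (edgeR adjusted p = 4.91e-08), and after each line's mean was removed its r with the secondary wall genes was 0.21. The same r was 0.94 for LAC17, 0.82 for XCP1, 0.79 for XCP2 and 0.58 for GulLO6. Whether the CRISPR/Cas line carries a change at another locus than NAC052 was not tested, and in a single line its part in any CRISPR/Cas difference given here cannot be told apart from that of NAC052.

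Other genes of the secondary wall were lower in the CRISPR/Cas line as well. Of 15 genes for secondary wall cellulose, xylan and lignin, 10 were lower and 2 higher in the CRISPR/Cas line against reference, where 12.8% of all tested genes were lower, with a median log2 fold change of -1.36 beside 0.004 over all tested genes. The lower ones with the largest changes were IRX15, a gene of xylan synthesis (-1.83 ± 0.36, edgeR adjusted p = 0.00298), the laccase LAC11 (-1.67 ± 0.29, adjusted p = 0.00155) and LAC17 (-1.65 ± 0.215, adjusted p = 0.000266). CTL2, a chitinase-like protein of secondary wall cellulose, had 3.34, 3.88 and 3.04 CPM in the CRISPR/Cas libraries, against 8.24, 8.97 and 10.4 CPM in the reference libraries. FRA8 and PARVUS, both of xylan synthesis, were higher (1.36 ± 0.29 and 0.83 ± 0.13, edgeR adjusted p = 0.00454 and 0.000908). PARVUS was also called higher in GLDT::NAC052 against reference. In CRISPR/Cas against GLDT::NAC052 FRA8 was higher and PARVUS was not called.

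**Figure D4:**
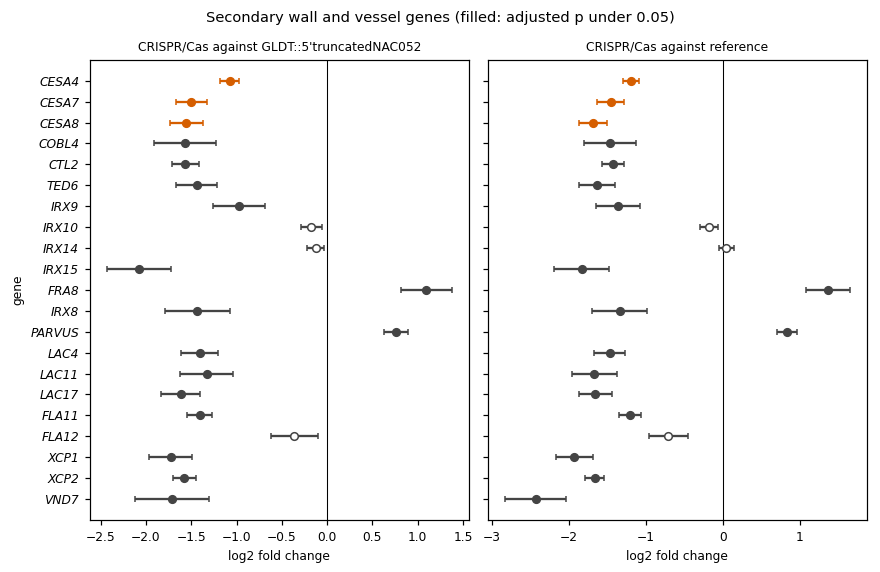
Log2 fold change, with its SE, of CESA4, CESA7 and CESA8 (orange) and of other secondary wall and vessel genes (grey) in the CRISPR/Cas line, against the GLDT::5'truncatedNAC052 line of the same lane and against reference. Filled points have an edgeR adjusted p under 0.05. FRA8 and PARVUS lie right of 0 in both panels.

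Of 12 secondary wall transcription factors, 8 were tested and 3 were lower in the CRISPR/Cas line against reference, where 12.8% of all tested genes were. These were VND7, a switch of vessel formation (-2.43 ± 0.40, edgeR adjusted p = 0.000984), SND2 (-1.01 ± 0.29, adjusted p = 0.0233) and the lignin regulator MYB58 (-1.01 ± 0.30, adjusted p = 0.0254). The summed level of the xylem vessel markers XCP1, XCP2 and VND7 ran from 17.7 to 29.9 CPM in the CRISPR/Cas libraries, against 79.2 to 90.25 CPM in the reference libraries, and all 3 were lower. Its part in the fall of the secondary wall genes was not tested.

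The other markers were as follows. The 3 phloem markers summed to 279 to 370.0 CPM in the CRISPR/Cas libraries, against 307 to 402 CPM in the reference libraries. APL and SEOR1 were lower and SUC2 was not called. Against each GLDT line, of the same lane as CRISPR/Cas, SEOR1 was again lower and APL was not called. The 5 dividing cell markers summed to 12.6 to 16.3 CPM in the CRISPR/Cas libraries, against 19.7 to 27.35 CPM in the reference libraries, and 3 of them were lower. Over all tested genes 12.8% were lower in this comparison. Within the lane of CRISPR/Cas, 2 of the 5 were lower against GLDT::5'truncatedNAC052 and 1, KNOLLE, against GLDT::NAC052. Over all tested genes 15.4% and 20.9% were lower there. The dividing cell markers summed to 21.1 to 24.75 CPM in GLDT::5'truncatedNAC052 and 17.2 to 23.2 CPM in GLDT::NAC052, both above CRISPR/Cas. The 4 leaf markers, high in all libraries, summed to 23200 to 25560 CPM in the CRISPR/Cas libraries, against 27840 to 30770 CPM in the reference libraries, with LHCB2.1 lower and the others not called. The 6 floral markers summed to at most 2.045 CPM in any library, and to 0.681 to 0.880 CPM in the CRISPR/Cas libraries, against 1.40 to 1.61 CPM in the reference libraries, with neither of the 2 tested called. The part of these markers in the results was not tested.

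Of 13 partners of the cellulose synthase complex, 6 were lower and 1 higher in the CRISPR/Cas line against reference, where 12.8% of all tested genes were lower. The 3 with the largest changes were CC2, which links the complex to microtubules (-1.39 ± 0.27, edgeR adjusted p = 0.00311), the chitinase-like CTL1 (-0.76 ± 0.09, adjusted p = 0.000167) and COB (-0.62 ± 0.09, adjusted p = 0.000587). In the GLDT::NAC052 line 3 of the 13 partners were higher against reference and none lower, near the 17.0% of all tested genes, with the largest change in SHOU4L (0.96 ± 0.13, edgeR adjusted p = 0.000163), whose product holds back delivery of the complex to the membrane. SHOU4L had 63.2, 77.3 and 64.2 CPM in the GLDT::NAC052 libraries, against 29.4, 39.6 and 36.4 CPM in the reference libraries. In the GLDT::5'truncatedNAC052 line 1 partner, STL1, was higher (0.30 ± 0.08, edgeR adjusted p = 0.0394), where 5.83% of all tested genes were called. In the activation-tagged line no partner was called, where 3.65% of all tested genes were.

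Other relatives of the cellulose synthases moved in both directions. Of 24 further cellulose synthase-like genes, 20 were tested, and in the CRISPR/Cas line 6 were lower and 1 was higher than in reference, where 23.8% of all tested genes changed. The largest changes were in CSLD5 (-0.99 ± 0.15, edgeR adjusted p = 0.000776), CSLE1 (0.88 ± 0.16, adjusted p = 0.00186) and CSLA9, a glucomannan synthase (-0.83 ± 0.17, adjusted p = 0.00335). In the GLDT::NAC052 line 5 were lower and 2 higher, a share near the 34.3% of all tested genes that changed. Among those called, CSLA3 (-0.98 ± 0.19, edgeR adjusted p = 0.00167), CSLC8 (-0.82 ± 0.13, adjusted p = 0.000498) and CSLE1 (-0.75 ± 0.16, adjusted p = 0.00325) changed most. The 2 higher genes were CSLD2 and CSLD3, needed for root hair growth, at 0.72 ± 0.14 and 0.35 ± 0.10 (edgeR adjusted p = 0.00191 and 0.0157). In activation-tagged plants CSLA11 and CSLA15 were lower (-1.19 ± 0.26 and -2.11 ± 0.44, edgeR adjusted p = 0.0232 and 0.0204), as was FLA11, an arabinogalactan protein of secondary walls (-0.73 ± 0.14, adjusted p = 0.0123). These were 2 of the 20 tested cellulose synthase-like genes and 1 of the 15 secondary wall genes, where 3.65% of all tested genes were called. CSLA15 was scarce, with a mean of 0.66 CPM in activation-tagged and 2.86 CPM in reference libraries. Of 7 remaining CESA and CSLB genes only CESA9 and CSLB3 were abundant enough to be tested. CESA9 was lower than in reference in the CRISPR/Cas line (-0.98 ± 0.29, edgeR adjusted p = 0.0237) and in GLDT::NAC052 plants (adjusted p = 0.0158). Against GLDT::5'truncatedNAC052, of the same lane, it was called in neither line (-0.29 and -0.3, edgeR adjusted p = 0.493 and 0.564). CRISPR/Cas against GLDT::NAC052 was at 0.01 (adjusted p = 0.975). The GLDT::5'truncatedNAC052 and activation-tagged libraries also lay below reference without overlap, uncalled (-0.70 and -0.49, adjusted p = 0.17 and 0.384). Lane and line therefore cannot be told apart in the fall of CESA9.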

How the data were processed

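The authors made stranded single-end mRNA libraries, trimmed the reads and mapped them to TAIR10 with CLC Genomics Workbench, after conversion with bcl2fastq. The deposited values are whole-number read counts per gene without normalization. Another 6 columns match none of the described samples and were left out. The fit used edgeR 4.0.16 in R 4.3.3 on all 15 libraries, with a term per line, trimmed mean of M values scaling, and the filterByExpr filter (count minimum 10, total 15). A gene was called at a Benjamini-Hochberg adjusted p under 0.05. CPM are these counts scaled to effective library size. Simulated data served to test the fit. With 3 libraries against 3, an exact permutation test cannot go below p = 0.1. Likeness used genes with a mean of at least 1 CPM and log2 CPM with a prior count of 2, naming the 5 highest r. All 9 genes are named, and from the other lists those with the largest changes among the called, beside some chosen after their values were seen. The members and lists were chosen with earlier results of these data known. Alternatives used DESeq2 1.42.0 and limma 3.58.1. Coding sequences were aligned with mafft 7.526.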

Additional observations from a re-analysis of the deposited data

How the results depend on the processing

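No call on CESA4, CESA7 or CESA8 changed in any alternative, and no called gene of the 9 reversed. Over 1008 refitted log2 fold changes, 47 calls were lost and 7 gained, and 32 uncalled values changed sign, none above 0.258 in size. Requiring a fold above 2 or below 0.5 left 3 genes in each CRISPR/Cas comparison and 0 in GLDT::NAC052 against reference and against GLDT::5'truncatedNAC052, and of the other lists 16 genes in CRISPR/Cas against reference, 17 against GLDT::5'truncatedNAC052, 16 against GLDT::NAC052, 22 against activation-tagged (a comparison added after seeing the data) and 0 in the GLDT lines, where the fitted counts were 31, 35, 34, 36, and 1, 12 and 6. Library totals alone gave 0 genes of the 9 in the activation-tagged line, and 2 list genes in GLDT::5'truncatedNAC052 and 19 in GLDT::NAC052 against reference. Over all tested genes they called 697, 1351 and 7039 in these lines in the same order, where 717, 1147 and 6736 were called as fitted. They moved the share of higher genes among those called to 27.7%, 68.4% and 64.7% for activation-tagged, then GLDT::5'truncatedNAC052, then GLDT::NAC052 against reference, where it was 52.2%, 48.0% and 49.6% as fitted, and to 63.2%, against 46.2%, in CRISPR/Cas against GLDT::5'truncatedNAC052. With only the 6 libraries compared, 0 of the 9 were called in the activation-tagged and GLDT::5'truncatedNAC052 lines, 1 in GLDT::NAC052 and 0 in GLDT::NAC052 against GLDT::5'truncatedNAC052. Over all tested genes this fit called 953, 165, 5446 and 15 in the same order of comparisons, where 717, 1147, 6736 and 1680 were called as fitted. List genes then numbered 5 in activation-tagged and 0 in both GLDT::5'truncatedNAC052 comparisons. In the same fit NAC052 in the activation-tagged line was called at 1.78 and NAC050 in the CRISPR/Cas line at -0.36. DESeq2 called 5 list genes and NAC052 (1.79) in the activation-tagged line, 3 list genes in GLDT::5'truncatedNAC052, and 3 of the 9 in GLDT::NAC052 against GLDT::5'truncatedNAC052. Over all tested genes DESeq2 called 1424, 1908 and 2486 in the same order, where 717, 1147 and 1680 were called as fitted. In GLDT::5'truncatedNAC052 limma voom called 3 list genes, the filter of 10 counts in every library 2 and no filter 0. Over all genes these called 1152, 1249 and 986 in that comparison. Per kilobase, the secondary share was 1.92% in CRISPR/Cas, 3.37% in activation-tagged, 2.81% in GLDT::NAC052 and 3.70% in reference. The cause of these moves was not tested.

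The lowest correlation of same-numbered deviations was between -0.087 and 0.093 over the comparisons, so replicate numbers were not used to pair the libraries. In GLDT::NAC052 against GLDT::5'truncatedNAC052 all these correlations were positive, at 0.138, 0.093 and 0.439. With the replicate block, 2 genes of the 9 were called in GLDT::NAC052 against GLDT::5'truncatedNAC052 where 1 was without it, and the number called was the same in the other comparisons. Over all tested genes 1877 were called with the block in GLDT::NAC052 against GLDT::5'truncatedNAC052, and 1680 without it. Leaving out 1 library gave 0 to 1 genes of the 9 in activation-tagged and in GLDT::5'truncatedNAC052, 1 to 3 in GLDT::NAC052, 0 to 2 in GLDT::NAC052 against GLDT::5'truncatedNAC052, 4 to 8 in CRISPR/Cas against GLDT::5'truncatedNAC052 and 5 to 7 against reference. List genes then ran from 0 to 3 in activation-tagged, 0 to 3 in GLDT::5'truncatedNAC052 and 2 to 7 in GLDT::NAC052 against GLDT::5'truncatedNAC052, and NAC050 in GLDT::NAC052 from -0.75 to -0.11.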
